A study of Zea mays with 6 samples.

Results

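In seedling shoots of maize, 10 genes of the light-harvesting system were followed: 8 genes of chlorophyll a/b binding proteins (CAB genes) and 2 GOLDEN2-like regulators, g2 (Zm00001d039260) and glk1 (Zm00001d044785). They were chosen by identifier, with the CAB class and the regulator names given for those identifiers beforehand, and make up 10 of the 44146 genes in the deposited tables. The reference table used here holds 0 of the 10 identifiers, so class and names were not checked and no sequence or map position is given. The study compared wild-type (WT) maize (Zea mays) with a line labelled GBetaKO, a knockout of the gene for Gβ (one of the subunits that form the G protein complex relaying signals from the cell surface). Both genotypes were untreated seedlings at the three-leaf stage, grown in normal conditions and sampled without roots. Each had 3 libraries described as biological replicates, and the titles name only one knockout line (KO1), so loss of Gβ and any other difference of that line cannot be told apart. The labels do not say how many seedlings went into a library.

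Chlorophyll a/b binding proteins hold the chlorophyll of the antennae around both photosystems and pass absorbed light energy to the reaction centres. They are encoded by a nuclear gene family, and their mRNAs are among the most abundant of a green leaf and are known to respond to light and to the circadian clock. GOLDEN2-like proteins are transcription factors that promote chloroplast development, and in Arabidopsis they activate light-harvesting and chlorophyll synthesis genes. In the maize leaf, which divides C4 photosynthesis between mesophyll and bundle sheath cells, glk1 is the mesophyll member of the pair and g2 the bundle sheath member.

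The reads worked back from the deposited values numbered 14757648 in the smallest library and 17665691 in the largest. Levels are given in FPKM (fragments per kilobase, scaled by a factor for each library), so that genes of different length can be compared. Wild-type replicate 3 and knockout replicate 2 stood apart from the other libraries of their groups over all genes. The mean chi-square per gene between wild-type replicates 1 and 2 was 10.2, against 107 and 125 for the pairs with replicate 3. Between knockout replicates 1 and 3 it was 10.4, against 69.7 and 55.1 for the pairs with replicate 2. Every pair was above the value of about 1 that sampling noise alone gives, so no library was counted as a repeat of another. Results are therefore given with and without these libraries. They were left out because they stood apart, so fits without them understate the spread between replicates. The p-values of those fits tend to be too small.

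Of the regulators glk1 fell in the knockout, while g2 was at nearly the same mean level in both genotypes. The glk1 mRNA stood at 32.4, 29.0 and 39.7 FPKM in wild-type replicates 1, 2 and 3 and at 6.20, 17.2 and 8.41 FPKM in knockout replicates 1, 2 and 3. Every wild-type library lay above every knockout library, and replicate 2 was the highest of the knockout. The means were 33.7 ± 5.47 FPKM in wild type and 10.6 ± 5.80 FPKM in the knockout (SD, n = 3 each). On log2(FPKM + 1) glk1 fell by 1.68 ± 0.35 (SE; limma, Benjamini-Hochberg adjusted p = 0.014 over 23232 tested genes). In the same test 16.0% of all tested genes were called lower in the knockout, so a call in this direction is common in these data. The values rest on 219 to 961 reads per library. Leaving out knockout replicate 3 ended the call, with a log2 difference of -1.59 and a limma adjusted p of 0.060, and leaving out any other single library kept it. In bulk shoots, fewer mesophyll cells and less glk1 mRNA per cell cannot be told apart.

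The g2 mRNA stood at 25.3, 19.9 and 30.7 FPKM in wild-type replicates 1, 2 and 3 and at 17.2, 38.2 and 23.3 FPKM in knockout replicates 1, 2 and 3. The groups overlapped, and the lowest and the highest value were both in knockout libraries. The means were 25.3 ± 5.38 FPKM in wild type and 26.2 ± 10.8 FPKM in the knockout (SD, n = 3 each). The log2 difference was 0.00 (-0.0039 ± 0.32, SE), with a 95% interval from -0.77 to 0.76 and a limma adjusted p of 0.995. This interval still allows a change of the g2 level of up to about 0.76 on the log2 scale in either direction. The near-equal means rest partly on knockout replicate 2, which held the highest value. Without that library the log2 difference was -0.30 (limma adjusted p = 0.4). It was 0.14 without wild-type replicate 3 (limma adjusted p = 0.77) and -0.16 without both libraries (limma adjusted p = 0.52).

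Set against each other within a library, where library scaling cancels, the regulators stood in opposite order in the genotypes. The level of glk1 was 1.28, 1.45 and 1.29 times that of g2 in wild-type replicates 1, 2 and 3. It was 0.361, 0.449 and 0.361 times that of g2 in knockout replicates 1, 2 and 3. Thus glk1 was the more abundant of the pair in every wild-type library and g2 in every knockout library. The mean ratio was 1.34 ± 0.0967 in wild type and 0.390 ± 0.0510 in the knockout (SD, n = 3 each), a 3.44-fold difference. On log2(FPKM + 1) the difference of the ratio, knockout minus wild type, was -1.68 (two-sided exact permutation test, p = 0.1, which is the lowest value 3 libraries against 3 can reach). Any quantity whose groups do not overlap reaches this p, and 49.4% of all tested genes had groups without overlap. As the mean g2 difference was close to 0, the ratio largely repeats the glk1 difference and is not a separate result. Replicates of a genotype that differed in both regulators kept a similar ratio. In knockout replicate 2, glk1 was 2.35 times and g2 1.89 times the mean of the other knockout libraries, and its ratio of 0.449 was still below every wild-type ratio. With both libraries that stood apart left out, the log2 difference of the ratio was -1.78.

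**Figure D1:**
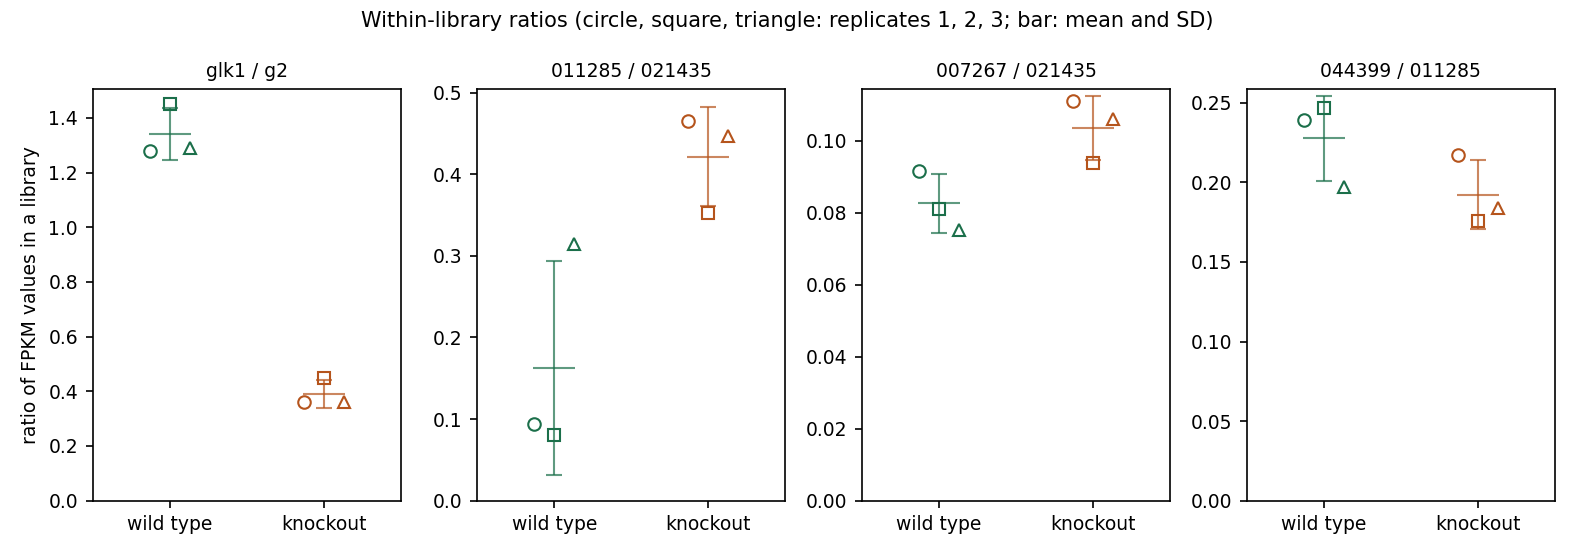
Ratios of FPKM values within each library, by genotype, for glk1 over g2 and for 3 pairs of CAB genes named by the digits of their identifiers. Points are libraries and bars the mean and SD of 3; the glk1 to g2 ratio lay between 1.28 and 1.45 in wild type and between 0.361 and 0.449 in the knockout.

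The CAB genes covered a wide range of levels. Zm00001d021435 was the most abundant transcript of all genes in each wild-type library and ranked 4, 5 and 4 in knockout replicates 1, 2 and 3. In all 3 knockout libraries and in wild-type replicates 1 and 3 the order from high to low was Zm00001d021435, Zm00001d011285, Zm00001d007267, Zm00001d044399, Zm00001d044402, Zm00001d033136, Zm00001d033132 and Zm00001d044401. Zm00001d011285 and Zm00001d007267 were nearly level in wild-type replicates 1 and 2, at 644 and 629 FPKM in replicate 1 and at 491 and 498 FPKM in replicate 2. The order of wild-type replicate 2 also differed in that Zm00001d044402 at 13.8 FPKM was below Zm00001d033136 at 25.2 FPKM and Zm00001d033132 at 22.0 FPKM. Zm00001d033136 and Zm00001d033132 were neighbours in the order whose ranges overlapped in both genotypes.

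**Figure D2:**
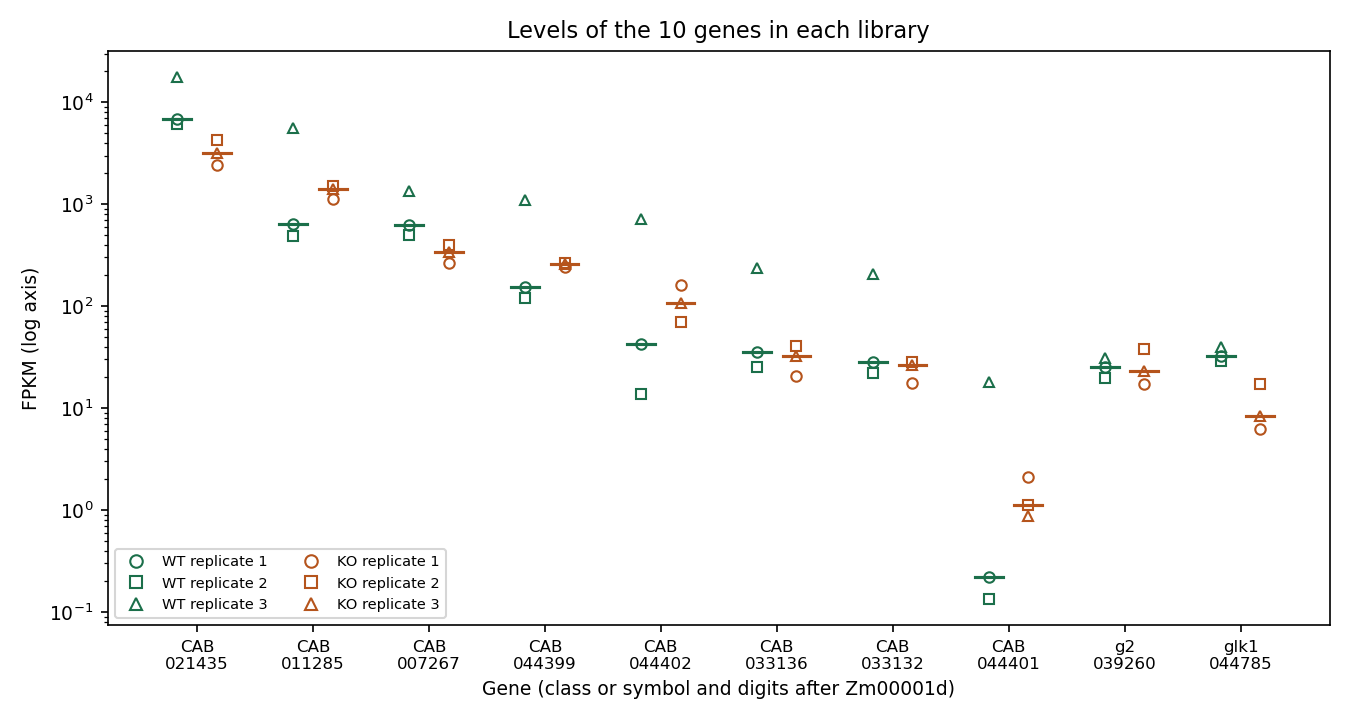
FPKM (log axis) of the 8 CAB genes, g2 and glk1 in each of the 6 libraries; points are libraries and horizontal lines the median of 3. Wild-type replicate 3 (green triangles) lay above the other wild-type libraries for all 8 CAB genes, and the genotypes did not overlap for Zm00001d021435, Zm00001d007267 and glk1.

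With all 6 libraries, 0 of the 8 CAB genes passed the test, while 31.2% of all tested genes did (limma, adjusted p below 0.05). An unadjusted limma p below 0.05 was reached by 2 of the 8 (Zm00001d021435 and Zm00001d007267, both with a negative log2 difference), while 43.2% of all tested genes reached it, 21.7% with a negative difference. The voom fit on the recovered reads also called 0 of the 8. The median log2 difference of the 8 genes was -0.66 with all libraries and 0.46 without wild-type replicate 3, so that this library set its sign; over all tested genes the median was 0.02 in both fits. All 10 genes passed the filter of at least 1 FPKM in at least 3 libraries, Zm00001d044401 only through wild-type replicate 3 and knockout replicates 1 and 2. The wide spread of the wild type came from replicate 3, which is described after the single genes.

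Zm00001d021435 stood at 6873, 6145 and 17714 FPKM in wild-type replicates 1, 2 and 3 and at 2394, 4281 and 3181 FPKM in knockout replicates 1, 2 and 3. Every wild-type library was above every knockout library, as in 24.5% of all tested genes. The log2 difference was -1.51 ± 0.56 (SE), which missed the threshold (limma adjusted p = 0.088). Without wild-type replicate 3 it was -1.02 (limma adjusted p = 0.074), and without that library and knockout replicate 2 it was -1.24 (limma adjusted p = 0.0057).

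Zm00001d007267 was lower in level but had the same order of libraries, with 629, 498 and 1332 FPKM in wild-type replicates 1, 2 and 3 and 266, 401 and 337 FPKM in knockout replicates 1, 2 and 3. Its groups did not overlap either. With glk1 these were 3 of the 10 members without overlap, all with the wild type higher, where 49.4% of all tested genes had groups without overlap in either direction; 0 of the 10 had every knockout library above every wild-type library, against 25.0% of all tested genes. The log2 difference was -1.18 ± 0.43 (SE; limma adjusted p = 0.084), and in the 4 libraries without wild-type replicate 3 and knockout replicate 2 it was -0.90 (limma adjusted p = 0.012). Its level stayed at 0.0752 to 0.0915 of that of Zm00001d021435 in the wild-type libraries and at 0.0937 to 0.111 in the knockout libraries.

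Zm00001d011285 stood at 644, 491 and 5568 FPKM in wild-type replicates 1, 2 and 3 and at 1113, 1509 and 1421 FPKM in knockout replicates 1, 2 and 3. The 3 knockout libraries were alike and lay between the low and the high wild-type values. With all libraries the log2 difference was 0.14 (0.1450 ± 0.93, SE; limma adjusted p = 0.92). Without wild-type replicate 3 it was 1.25 ± 0.28 (SE, higher in the knockout; limma adjusted p = 0.018).

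Zm00001d044399 followed it, with 154, 121 and 1098 FPKM in wild-type replicates 1, 2 and 3 and 242, 265 and 261 FPKM in knockout replicates 1, 2 and 3. The knockout libraries again lay between the wild-type values. Its level was 0.176 to 0.247 of that of Zm00001d011285 over all 6 libraries. The log2 difference was -0.10 ± 0.82 (SE; limma adjusted p = 0.94) with all libraries, and 0.90 ± 0.20 (SE; limma adjusted p = 0.018) without wild-type replicate 3, so that this one library set the sign.

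Zm00001d044402 varied most among the abundant CAB genes, with 42.2, 13.8 and 723 FPKM in wild-type replicates 1, 2 and 3 and 163, 69.7 and 108 FPKM in knockout replicates 1, 2 and 3. The highest wild-type value was 52.4 times the lowest. The log2 difference was 0.48 ± 1.36 (SE; limma adjusted p = 0.82), and without wild-type replicate 3 it was 2.09 ± 0.55 (SE; limma adjusted p = 0.031). In contrast to the other CAB genes with many reads, knockout replicate 2 was its lowest knockout library, at 0.515 times the mean of the other knockout libraries.

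Zm00001d044401, with the next lower identifier, was nearly silent in the other wild-type libraries. It had 3, 2 and 236 reads in wild-type replicates 1, 2 and 3 and 40, 17 and 15 reads in knockout replicates 1, 2 and 3. These reads gave 0.220, 0.135 and 18.1 FPKM in wild type and 2.10, 1.13 and 0.867 FPKM in the knockout. The log2 difference was -0.37 ± 1.09 (SE; limma adjusted p = 0.83), and without wild-type replicate 3 it was 0.97 (limma adjusted p = 0.035) on a scale that shrinks differences at such low levels.

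Zm00001d033136 stood at 35.6, 25.2 and 234 FPKM in wild-type replicates 1, 2 and 3 and at 20.8, 40.5 and 32.8 FPKM in knockout replicates 1, 2 and 3. Zm00001d033132 stood at 28.6, 22.0 and 209 FPKM in wild type and at 17.8, 28.5 and 26.3 FPKM in the knockout, in the same order of replicates. Outside wild-type replicate 3 the genotypes overlapped for both genes. Their log2 differences were -0.96 ± 0.82 and -1.08 ± 0.83 (SE; limma adjusted p = 0.42 and 0.36). Without wild-type replicate 3 these were 0.02 and -0.08, with 95% intervals from -0.76 to 0.79 and from -0.69 to 0.53.

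Some members with close identifiers had the same gene length. The length worked back from the deposited values was 1187 bases for both Zm00001d033132 and Zm00001d033136, whose levels stood at a ratio of 1.12 to 1.42 in all libraries. It was 967 bases for both Zm00001d044401 and Zm00001d044402, whose levels differed widely. The other CAB genes had 795 bases (Zm00001d011285), 848 bases (Zm00001d021435), 1096 bases (Zm00001d044399) and 1607 bases (Zm00001d007267). Reads that fit several family members may have been dropped or assigned whole to a single member in the authors' counting. The value of a single CAB identifier carries that uncertainty.

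Leaving out wild-type replicate 3 turned the count from 0 to 4 of 8 CAB genes higher in the knockout (Zm00001d011285, Zm00001d044399, Zm00001d044401 and Zm00001d044402) and 0 lower. Without that library 37.1% of all tested genes were called, 18.1% higher and 19.0% lower. Zm00001d044401 passed the filter only through the library left out, and with the filter set on the other 5 libraries it was not tested and 3 of 7 CAB genes were called, all higher. With knockout replicate 2 left out as well, 4 were higher and 2 lower (Zm00001d021435 and Zm00001d007267). Of all tested genes 51.4% were then called, 25.4% higher and 26.1% lower. With the filter set on these 4 libraries Zm00001d044401 was again not tested, and 3 of 7 were higher and 2 lower. In that smaller comparison each genotype had 2 libraries, those most alike, so its adjusted p-values tend to be too small. In these 4 libraries CAB genes were thus called in both directions, and Zm00001d033132 and Zm00001d033136 passed in neither fit. The regulator g2 passed in neither, and glk1 was lower in both, with log2 differences of -1.56 (limma adjusted p = 0.027) and -1.94 (limma adjusted p = 5.2e-04).

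**Figure D3:**
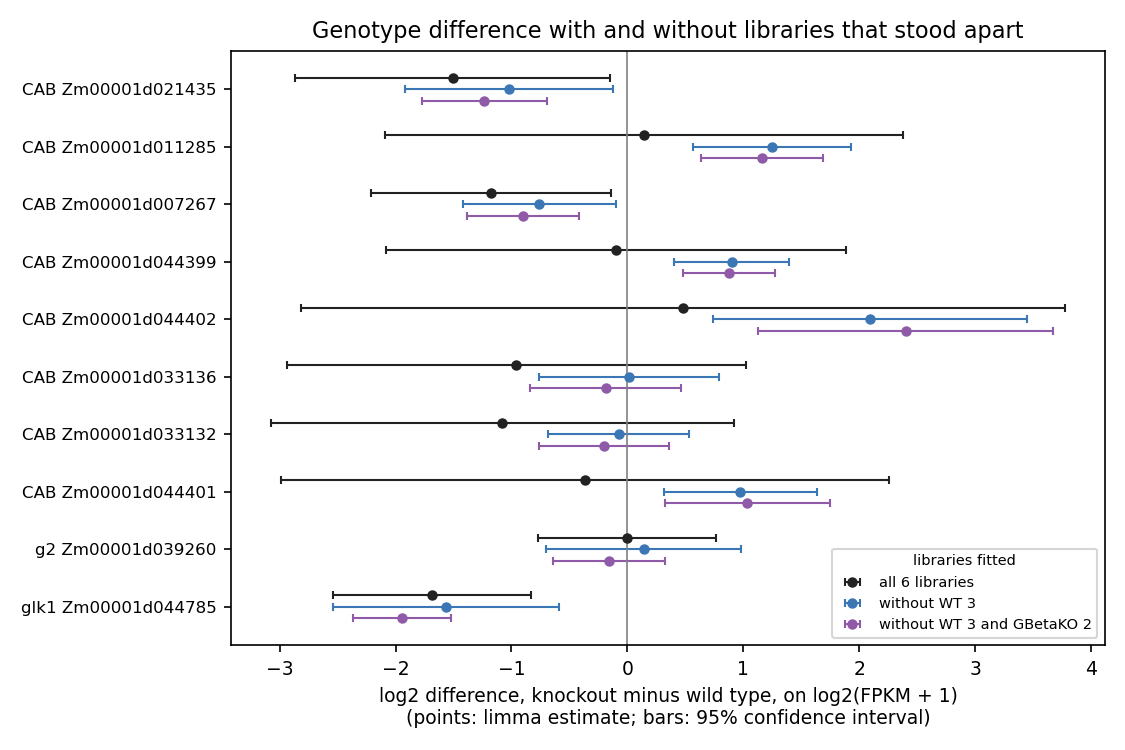
Log2 difference between knockout and wild type on log2(FPKM + 1) for each gene, fitted on all 6 libraries, without wild-type replicate 3, and without that library and knockout replicate 2; points are limma estimates and bars 95% intervals. The estimate for Zm00001d044399 moved from -0.10 to 0.90 without wild-type replicate 3, and that for glk1 was -1.68, -1.56 and -1.94.

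Wild-type replicate 3 differed from its group in the CAB genes and much less in the regulators. All 8 CAB genes were at least 2-fold above the mean of wild-type replicates 1 and 2 on FPKM + 1, as were 9.22% of all tested genes, and 6 of the 8 were at least 4-fold above it, as were 1.64% of all tested genes. Neither regulator reached 2-fold. In FPKM the ratio was 2.37 for Zm00001d007267 and 2.72 for Zm00001d021435, the CAB genes whose groups did not overlap. It was 7.69 to 9.81 for Zm00001d033136, Zm00001d044399, Zm00001d033132 and Zm00001d011285, and 25.8 for Zm00001d044402. For Zm00001d044401, with few reads in the other wild-type libraries, it was 16.2 on FPKM + 1. It was 1.36 for g2 and 1.29 for glk1. Knockout replicate 2 gave the other picture, with 1.89 for g2 and 2.35 for glk1 against 0.515 to 1.54 for the CAB genes, relative to the mean of knockout replicates 1 and 3. The share of all tested genes with such a rise in knockout replicate 2 was not worked out. Whether the rise is particular to the regulators is therefore not known. The labels give no difference between replicates of a genotype.

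**Figure D4:**
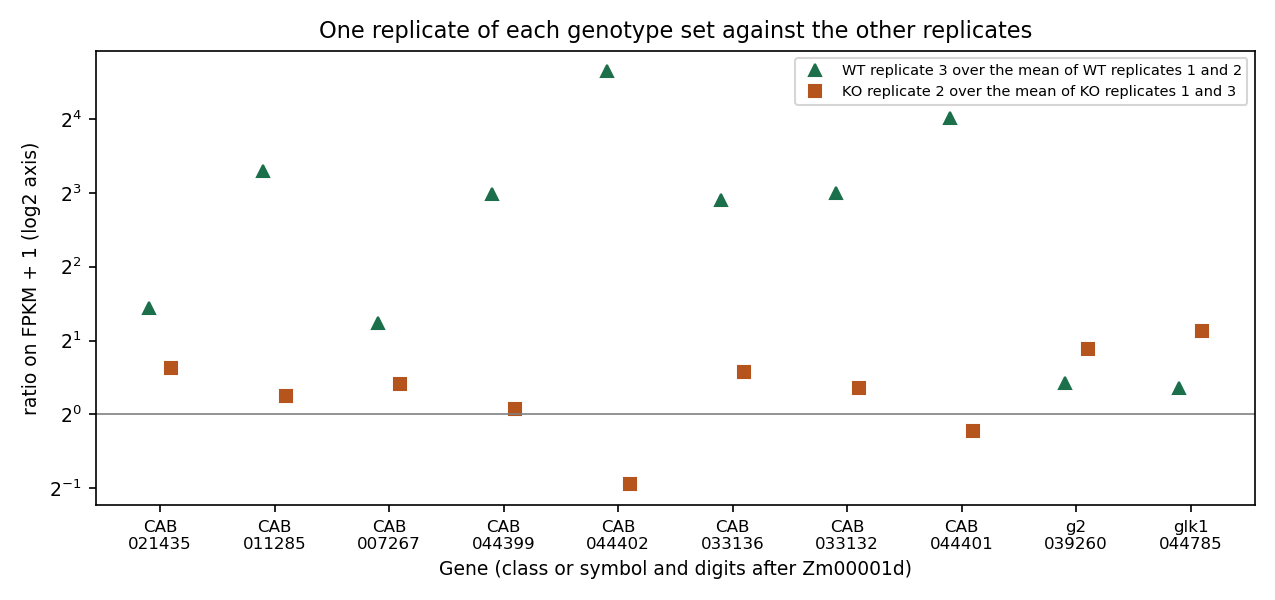
Ratio on FPKM + 1 (log2 axis) of wild-type replicate 3 to the mean of wild-type replicates 1 and 2 (triangles) and of knockout replicate 2 to the mean of knockout replicates 1 and 3 (squares), for each gene. The triangles lie between 2.36 and 25.0 for the CAB genes and at 1.34 and 1.28 for g2 and glk1.

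The summed level of the 8 CAB genes was 8407, 7316 and 26896 FPKM in wild-type replicates 1, 2 and 3. It was 4217, 6596 and 5368 FPKM in knockout replicates 1, 2 and 3. Each wild-type sum was above each knockout sum, an order that 24.5% of all tested genes also had. Zm00001d021435, whose groups did not overlap, made up most of the sum, so this order does not describe the 8 genes one by one. The sum made up 1.27%, 1.22% and 3.14% of all FPKM in wild-type replicates 1, 2 and 3 and 0.794%, 1.01% and 0.933% in knockout replicates 1, 2 and 3. The means were 14206 ± 11003 FPKM in wild type and 5394 ± 1189 FPKM in the knockout (SD, n = 3 each), a log2 ratio of the means of -1.40, which was -0.54 without wild-type replicate 3.

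Most of the sum was Zm00001d021435, and its share differed between libraries. It held 81.8%, 84.0% and 65.9% of the sum in wild-type replicates 1, 2 and 3 and 56.8%, 64.9% and 59.3% in knockout replicates 1, 2 and 3. Zm00001d011285 held 7.66%, 6.71% and 20.7% in wild-type replicates 1, 2 and 3 and 26.4%, 22.9% and 26.5% in knockout replicates 1, 2 and 3. The level of Zm00001d011285 was 0.0937, 0.0799 and 0.314 of that of Zm00001d021435 in wild-type replicates 1, 2 and 3 and 0.465, 0.352 and 0.447 of it in knockout replicates 1, 2 and 3. Here the knockout libraries lay above all wild-type libraries, wild-type replicate 3 included, although that replicate was much closer to the knockout than the others were. The pair was chosen after its values were seen, and the difference was not tested.

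**Figure D5:**
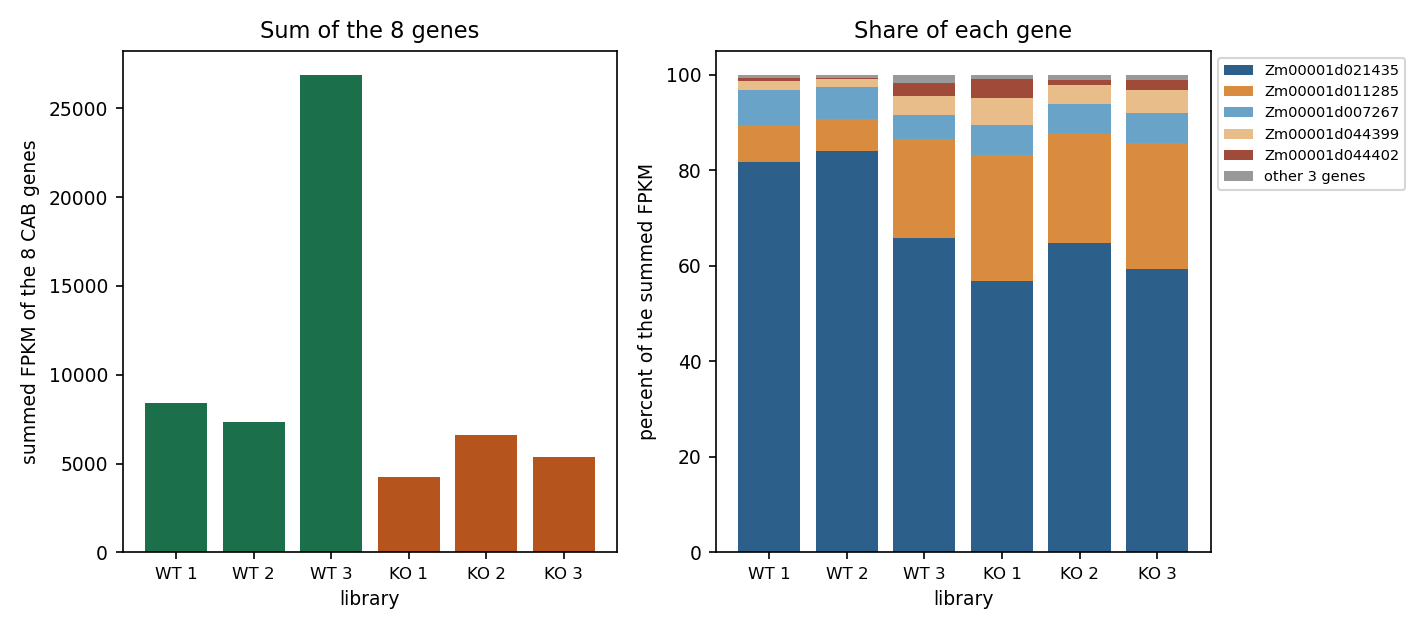
Summed FPKM of the 8 CAB genes in each library (left) and the percent of that sum held by each gene (right). The sum was highest in wild-type replicate 3, at 26896 FPKM, and the share of Zm00001d021435 lay between 65.9% and 84.0% in wild type and between 56.8% and 64.9% in the knockout.

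The 8 CAB genes did not share a single profile, as the Pearson r between pairs of them went down to 0.33 on log2(FPKM + 1). Few genes outside the set followed the mean log2 level of the 8 CAB genes closely over the 6 libraries. Of 11395 other genes with a mean of at least 10 FPKM, 112 (0.983%) had a Pearson r of at least 0.95 with it, given as a measure of likeness only. The closest were Zm00001d006879 (r = 0.9994) and Zm00001d003760 (r = 0.9962). Both were highest in wild-type replicate 3, at 64.5 and 49.1 FPKM, and at no more than 1.95 and 9.85 FPKM in the other libraries. That library alone brought them past the mean of 10 FPKM, and the likeness rests largely on it. For g2, 63 genes (0.553%) reached this r, with Zm00001d036608 closest (r = 0.9909). For glk1, 472 genes (4.14%) did, with Zm00001d018571 closest (r = 0.9986), at 51.7 to 56.4 FPKM in wild type and 30.5 to 42.2 FPKM in the knockout.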

How the data were processed

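Shoot RNA gave 6 libraries of paired 150 bp reads, per the labels. The authors deposited 1 table of FPKM values per library; TopHat2, Cufflinks, Cuffdiff and the build B73 RefGen_v4 are named in the submitters' processing notes, and neither versions, annotation nor strand are stated there. The unit was taken from these tools and the values. Whole reads were worked back from the FPKM values as multiples of a per-gene step (within 0.002 of a read) for 30066 of 31946 genes above 0; the other 1880 had reads in a single library. The library scaling totals implied by the FPKM values were 0.792 to 1.12 times these reads. Where all counts of a gene and its length have a common divisor, this gives too few reads.

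Groups and replicate numbers came from the titles. The 23232 genes reaching 1 FPKM in 3 or more libraries entered limma 3.58.1 (R 4.3.3) as log2(FPKM + 1), with the trend and robust options of empirical Bayes. Tests were two-sided, with a Benjamini-Hochberg threshold of 0.05. The limma test was also run on simulated counts in which no library stood apart. That run cannot show how the test behaves on the present libraries. Differences of weak genes are understated on this scale. The glk1 to g2 ratio was compared by an exact permutation test. The summed CAB level and the ratios of CAB genes were not tested. Python 3.11.15, numpy 2.4.6 and pandas 2.3.3 were used.

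All 10 members were named, with the 4 genes most like them by correlation. The members, tests and alternatives were chosen with earlier results of these data known. Of the 44146 identifiers 0 matched the reference table, so other light-harvesting genes, photosystem subunits, other GOLDEN2-like genes, mesophyll and bundle sheath markers and the targeted Gβ gene were not analysed here. Alternatives covered the pseudocount, filter, scaling, variance model, library weights, replicate block, libraries left out, voom on recovered reads and the threshold.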

Additional observations from a re-analysis of the deposited data

How the results depend on the processing

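The glk1 difference kept its direction under all alternatives run. Its log2 value was -2.06 to -1.40 with single libraries left out, and the call was lost without knockout replicate 3 (limma adjusted p = 0.060) and at a threshold of 0.01 (-1.68, limma adjusted p = 0.014). The log2 difference of the glk1 to g2 ratio, knockout minus wild type, lay between -1.76 and -1.62 with single libraries left out. The g2 value was close to 0 and changed sign: 0.0025 with a pseudocount of 5, 0.0008 after median-ratio rescaling, 0.15 after quantile normalization, 0.24 after scaling to the same summed FPKM, a scaling under which the median over tested genes was itself 0.24, and -0.30 to 0.25 with single libraries left out. The number of CAB genes called, 0 of 8, was 2 after quantile normalization (both lower, with 31.7% of all tested genes called), 1 with a plain variance model (lower, 31.8%), 4 with library weights (2 higher and 2 lower, 64.5%), 6 in the 4 libraries without wild-type replicate 3 and knockout replicate 2 (51.4%), and 0 to 4 with single libraries left out (18.1% to 37.1%). With the filter also set on the libraries fitted, chosen after seeing the data, it was 3 of 7 without wild-type replicate 3 (36.3%) and 5 of 7 in the 4 libraries (52.2%). The log2 ratio of the summed CAB levels was -1.71 to -0.54 with single libraries left out. Signs also changed for Zm00001d044399 (0.38 after quantile normalization, 0.16 after scaling to the same summed FPKM, 0.72 with library weights, 0.87 in the 4 libraries, -0.68 to 0.90 with single libraries left out) and Zm00001d044401 (0.31 with a pseudocount of 0.1, 0.64 with library weights, 0.58 with voom, 1.03 in the 4 libraries, -1.06 to 0.97 with single libraries left out). With single libraries left out, Zm00001d011285 ranged from -0.50 to 1.25, Zm00001d033136 from -1.57 to 0.0155 and Zm00001d044402 from -0.71 to 2.09. The cause was not tested. With a replicate block 0 CAB genes were called and glk1 stayed past the threshold (-1.68, limma adjusted p = 0.037); deviations of same-numbered libraries correlated at 0.15, -0.37 and -0.20, which gives no sign that the numbers pair them.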
